A study of Homo sapiens with 4 samples.

Results

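The interferon-stimulated genes described here are 57 genes known to be induced by type I and type II interferon. They were taken from the files by symbol, and all 57 were found with 1 row each among the 60487 genes of each library. RNA was sequenced from HCC1937, an established human breast cancer cell line. The cells carried a vector (genotype label BRCA1 -/-) or wtBRCA1 (genotype label wild type), and each line received either DMSO, the solvent, or OTX-015, an inhibitor of the BET bromodomain proteins that bind acetylated histones. Each of the 4 groups has 1 library, which leaves every value without a replicate and pairs of libraries without a test. Whether each line is a clone or a pool, and the dose and duration of OTX-015, are not given in the sources used here. Levels are FPKM, sequenced fragments scaled to transcript length and library size, and 4 values in a row stand for vector DMSO, vector OTX-015, wtBRCA1 DMSO and wtBRCA1 OTX-015.

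Interferons are secreted by cells that sense foreign or misplaced nucleic acid, and they bind receptors on the same and neighbouring cells. Type I and type III interferons act through the kinases JAK1 and TYK2 on a complex that holds STAT2 and IRF9 and binds the interferon-stimulated response element (ISRE) in promoters. Type II interferon acts through JAK1 and JAK2, and promoters that respond to it hold the gamma-activated site (GAS). The genes so induced encode proteins that bind viral RNA, block entry or budding, or modify proteins with the ubiquitin-like ISG15, and many also have a basal level in epithelial tumour cells.

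The binding element of that complex is shown first because it is what many members share in sequence and the choice of members did not use it. Promoters of 300 bases, from 250 bases before to 50 after the gene start, were held for 47 members in RefSeq sequence of GRCh38.p14. There was no entry for IFIT2, OAS2, OASL, SLFN5, MX2, GBP2, IFITM2, USP18, TRIM22 and PML. The ISRE core searched was GAAANNGAA followed by a further A, on either strand. It was present in 32 of 47 member promoters (68.1%), beside 996 of 27305 promoters in the table (3.65%) and 282 of 10083 promoters of the genes tested (2.8%). Without the last A, GAAANNGAA was present in 33 members (70.2%), beside 8.29% of all promoters. The GAS letters TTCNNNGAA were present in 12 members (25.5%), beside 7.88% of all promoters, and these were BST2, CXCL11, DDX60, EPSTI1, GBP3, IFI27, IFI35, IFITM1, IRF1, OAS1, PARP14 and PLSCR1. Of 27 promoters held for the interferon signalling genes described further below, 8 (29.6%) had the GAS letters and 5 (18.5%) the ISRE core. A match is a run of letters and not a measured binding site, and GAS and ISRE matches can overlap, as they do in BST2.

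The sites of 8 members that carry the results are printed 5′ to 3′ on the gene's strand, with 12 bases on each side and the core in capitals. A core that reads TTTC first lies on the opposite strand.
IFI6, -93 from the gene start, chr1:27672264-27672297, minus strand: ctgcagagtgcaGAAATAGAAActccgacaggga
IFI27, -95 from the gene start, chr14:94110629-94110662, plus strand: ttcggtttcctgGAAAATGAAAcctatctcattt
MX1, 12 from the gene start, chr21:41420557-41420590, plus strand: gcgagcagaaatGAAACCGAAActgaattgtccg
EPSTI1, -50 from the gene start, chr13:42992270-42992303, minus strand: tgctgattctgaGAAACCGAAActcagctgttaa
IFI44L, -73 from the gene start, chr1:78620363-78620396, plus strand: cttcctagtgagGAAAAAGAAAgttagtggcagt
RTP4, -18 from the gene start, chr3:187368355-187368388, plus strand: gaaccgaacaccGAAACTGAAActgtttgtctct
ISG15, -107 from the gene start, chr1:1013378-1013411, plus strand: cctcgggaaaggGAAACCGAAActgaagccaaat
TRIM14, -26 from the gene start, chr9:98119227-98119260, minus strand: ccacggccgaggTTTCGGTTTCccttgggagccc
All 8 genes were higher in wtBRCA1 than in vector cells under DMSO, as were all 57 members, with or without a core. EPSTI1 and MX1 fell under OTX-015, IFI6, IFI27, IFI44L, RTP4 and ISG15 did not pass for it, and TRIM14 rose.

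The whole promoter of IFI6, the member with the largest line effect, shows how several cores can stand together, again in capitals.
IFI6 promoter, chr1:27672143-27672442, minus strand: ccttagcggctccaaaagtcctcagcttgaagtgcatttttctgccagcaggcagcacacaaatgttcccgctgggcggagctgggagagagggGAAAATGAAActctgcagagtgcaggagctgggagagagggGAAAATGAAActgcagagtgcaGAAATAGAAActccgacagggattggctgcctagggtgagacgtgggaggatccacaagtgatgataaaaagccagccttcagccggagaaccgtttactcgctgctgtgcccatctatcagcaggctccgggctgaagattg
It holds 3 cores between 156 and 93 bases before the start, and the first pair sits in a repeated stretch. In IFI44L the cores at -164 and -73 had the same 34 bases, flanks included. In all there were 51 core matches in 32 members, with overlapping matches counted separately. A single match was found in 16 members and several in the other 16. Of the 51, 47 lay before the gene start, 43 of them within 150 bases, and the median position was -69.

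**Figure D1:**
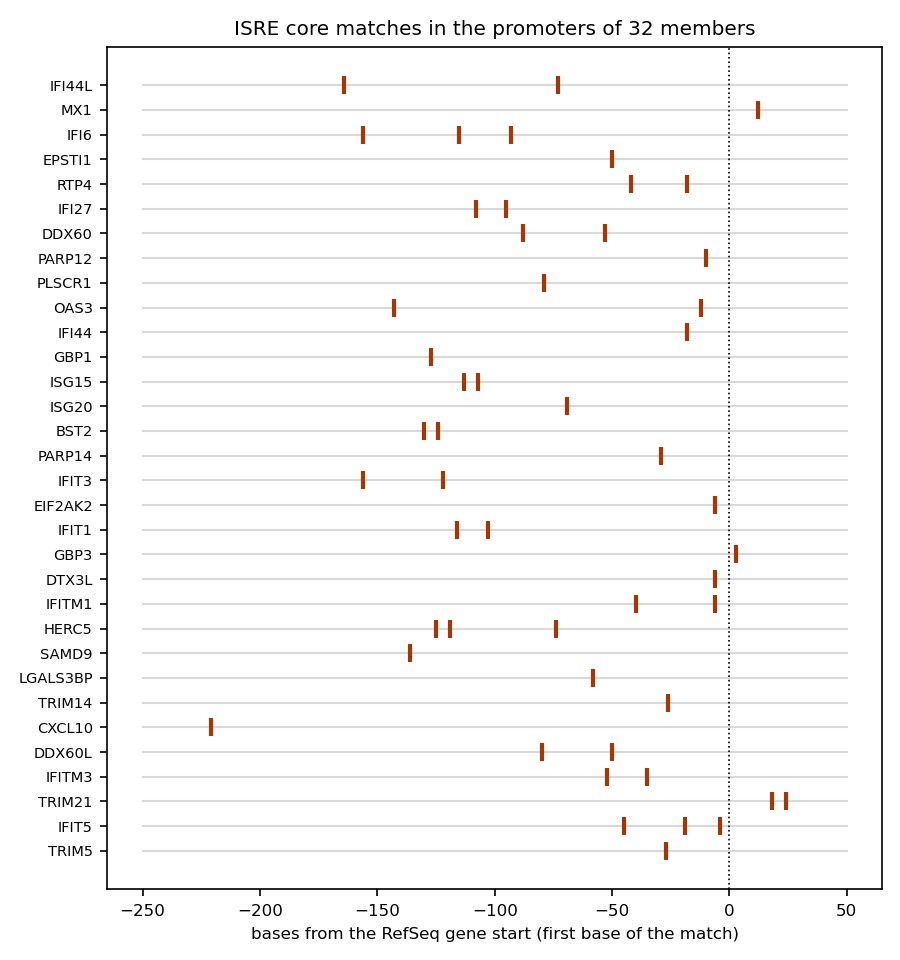
Positions of the ISRE core in member promoters, with the distance of the match's first base from the RefSeq gene start in bases on the x axis and 1 member per row; each tick is 1 match. Of 51 matches, 43 lie within 150 bases before the start, and 4 lie after it.

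The readouts of members with and without the core stood as follows. The median log2 difference between the lines under DMSO was 1.77 in the 32 with a core and 2.47 in the 15 without, and under OTX-015 it was 1.34 and 0.96. The median response to OTX-015 in vector cells was -0.68 with and -0.75 without a core. In wtBRCA1 cells it was -1.48 with and -1.70 without. These medians are a description with no test.

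The libraries were checked before the members were compared. BRCA1 was at 37.2, 40.8, 171 and 2712 FPKM, so the line labels held in direction. The wtBRCA1 libraries differed in BRCA1 level, at 171 FPKM under DMSO and 2712 FPKM under OTX-015. The OTX-015 response in wtBRCA1 cells thus also compares unlike BRCA1 levels, and the part of this in the results was not tested. The 7 epithelial markers were above 0 in every library, but the lines differed in which keratins they had. KRT5 was at 29.4, 23.2, 980 and 573 FPKM and KRT19 at 124, 234, 3.97 and 1.39 FPKM, and the summed level of the list was 11245, 26102, 6002 and 6632. Of 6 immune markers, CD3E was at 0 in all libraries, the leukocyte marker PTPRC reached at most 0.225 FPKM, 3 were under 1 FPKM in all, and the summed level was 16.2, 24.8, 33.8 and 50.2, with the monocyte and macrophage marker CD68 highest at 44.5. CD14, a monocyte marker, was at 0.109, 0, 9.51 and 5.62 FPKM and rose for the line by 2.99 log2 units (limma adjusted p = 0.00523). Of 5 fibroblast markers 3 were at 0 in all libraries, with sums of 2.11 to 9.78, and of 4 endothelial markers 2 were at 0 in all, with sums of 0.67 to 7.03. The immune and fibroblast sums, CD14 and KRT5 were higher in the wtBRCA1 line, as the members were, and their part in the results was not tested. FPKM summed to between 909314 and 1496107 per library and was larger in both OTX-015 libraries. The depth is unknown, because the files hold no counts. In RNA of bulk cells, fewer cells making a transcript and less transcript per cell cannot be told apart.

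Across the 57 members the wtBRCA1 DMSO library stood above the other 3. It held the highest value of 52 members (91.2%, beside 25.1% of all genes tested), and the vector OTX-015 library held the lowest value, ties included, of 41. The median member was at 6.78, 2.78, 34.9 and 7.0 FPKM. Members at 10 FPKM or more numbered 25, 14, 47 and 26, and members under 1 FPKM numbered 9, 17, 1 and 6. The summed FPKM of the members was 1426, 1288, 9691 and 6124. IFI6 and IFI27 together made up 22.0%, 29%, 49.8% and 63.7% of that sum. For 39 members wtBRCA1 cells under OTX-015 were still above vector cells under DMSO, and for 16 they were below. No share of all genes was counted for this comparison or for the lowest value. Several members are expressed at very low levels: 7 were at 0 in at least 1 library, and CXCL11 did not reach 1 FPKM in any library and was not tested.

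**Figure D2:**
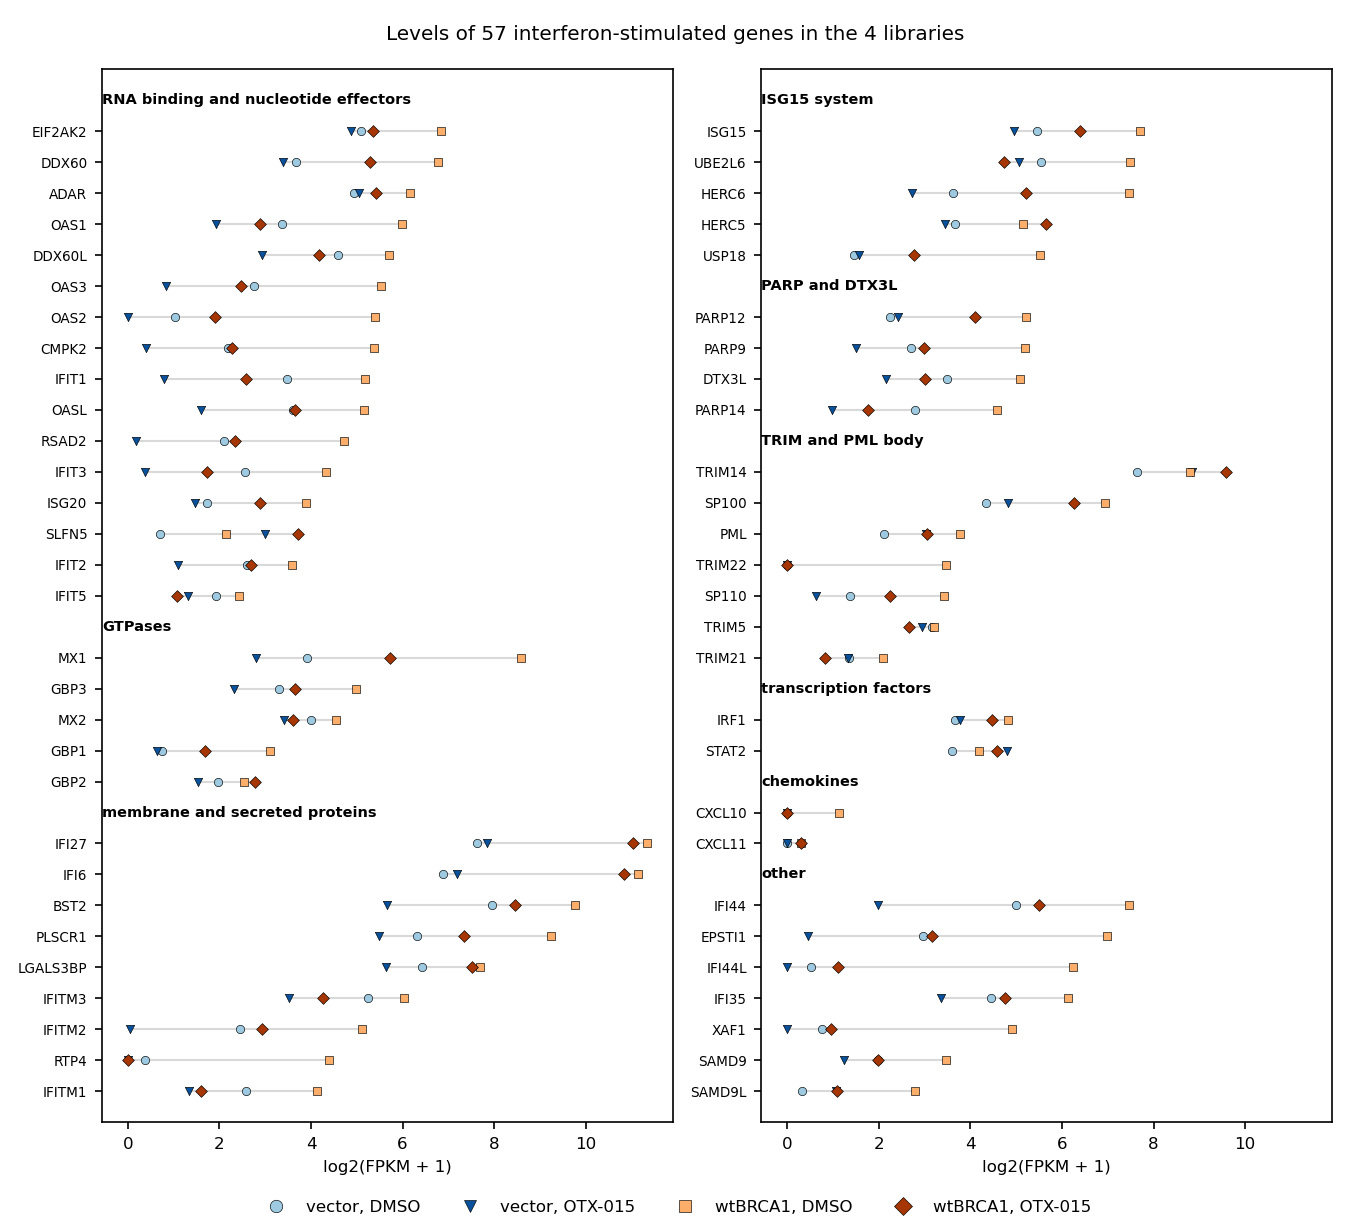
Levels of the 57 members as log2(FPKM + 1), with 1 row per member in role groups and 1 marker per library (circle, vector DMSO; triangle, vector OTX-015; square, wtBRCA1 DMSO; diamond, wtBRCA1 OTX-015). The square is farthest right for 52 members, and IFI6, IFI27 and BST2 reach the highest levels.

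The comparison of lines asks how the members differ between wtBRCA1 and vector cells. In the limma fit with line and treatment as terms, 32 of the 56 members tested rose in wtBRCA1 cells, 0 fell and 24 did not pass the threshold of adjusted p 0.05. Of all genes tested 4.88% rose and 3.41% fell. At an unadjusted p under 0.05, 44 members were higher and 0 lower, with no share of all genes counted at that cutoff. Under DMSO 48 of 57 were at least 1 log2 unit higher on the log2(FPKM + 1) scale and 0 lower, beside 14.8% and 11.7% of all genes. Under OTX-015 33 were higher by that size and 0 lower, beside 15% and 12.6%. The median log2 difference was 1.82 under DMSO and 1.25 under OTX-015, beside 0.04 and 0.00 over all genes. Every member was higher in wtBRCA1 cells under DMSO, although TRIM5 changed sign with median-of-ratios or quantile scaling, and 49 were higher and 5 lower under OTX-015. In 31 members the difference was at least 1 log2 unit under both treatments, beside 6.11% of all genes.

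The test has limits that apply to every call, and shares of all genes called were counted in this main fit only. With 1 library per group the fit leaves 1 residual degree of freedom per gene. Its p sets the mean difference against a spread taken from that gene and from all genes of like level. This spread reads how unlike differences were at both levels of the second factor, and says nothing of how cultures vary. IFITM3, with line differences of 0.78 under DMSO and 0.72 under OTX-015, did not pass, while IFI44L, with 5.73 and 1.11, did. Without the mean-variance trend 4 of the 32 calls for the line were left (IFI6, IFI27, EPSTI1 and IFITM2) and 0 of the calls for OTX-015, and leaving out any 1 library, with the second factor dropped too, left 0 of either.

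**Figure D3:**
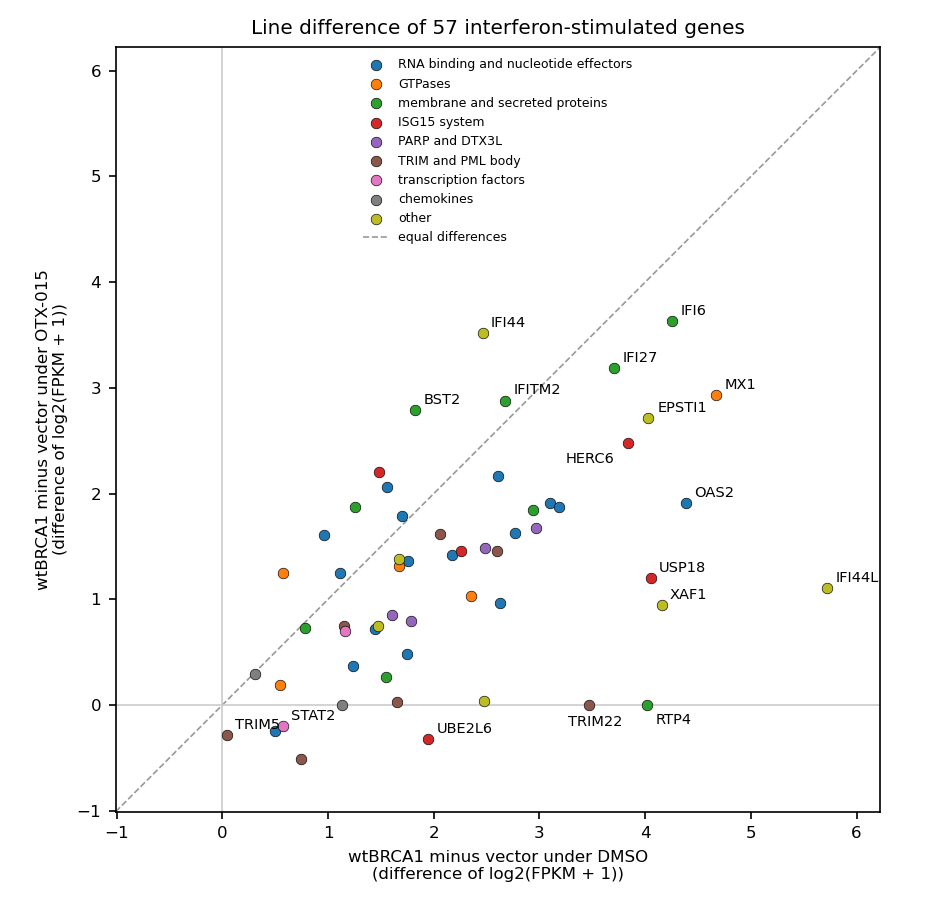
Difference between wtBRCA1 and vector cells in log2(FPKM + 1) for each member, under DMSO on the x axis and under OTX-015 on the y axis; each point is 1 member, coloured by role, and the dashed line marks equal differences. All 57 members lie to the right of 0, 49 lie above 0, and 47 lie below the dashed line.

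Membrane and secreted proteins held the highest levels and the largest line effect. Of 9 such members 6 rose. IFI6, an inhibitor of apoptosis in mitochondrial and endoplasmic reticulum membranes (ENSG00000126709, chr1:27666061-27672218, minus strand, GENCODE 29, hg38), was at 117, 145, 2253 and 1816 FPKM. Both wtBRCA1 libraries were far above both vector libraries, by 19.3-fold under DMSO and 12.5-fold under OTX-015, and its line effect was 3.95 ± 0.23 log2 units (SE, limma adjusted p = 3.84e-05). IFI27 (ENSG00000165949, chr14:94104836-94116698, plus strand), a small hydrophobic protein of the same family, was at 197, 229, 2575 and 2086 FPKM and rose by 3.44 ± 0.21 (limma adjusted p = 4.09e-05). IFI6 and IFI27 kept their calls when treatment was left out of the fit, and no other member did.

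The remaining membrane members were lower in level. BST2, or tetherin, which holds budding virions at the cell surface, was at 246, 49.6, 875 and 349 FPKM and rose by 2.31 ± 0.28 (limma adjusted p = 0.00173). IFITM2, which blocks virus entry at endosomes, was at 4.46, 0.0382, 33.8 and 6.64 FPKM and rose by 2.78 ± 0.38 (limma adjusted p = 0.00271). The close relative IFITM3 was at 37.0, 10.5, 64.3 and 18.0 FPKM and did not pass for the line. Reads of IFITM family members can be split between near-identical copies, so these levels are uncertain. PLSCR1, a phospholipid scramblase, rose by 2.39 ± 0.32 with a highest level of 607 FPKM. LGALS3BP, a secreted galectin-binding glycoprotein, was at 85.3, 48.8, 205 and 181 FPKM and rose by 1.56 ± 0.29 (limma adjusted p = 0.0108). RTP4, a chaperone that helps receptors reach the cell surface, was at 0.302, 0, 20.1 and 0 FPKM. It was seen almost only in the wtBRCA1 DMSO library and did not pass the test.

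The RNA-binding and nucleotide-metabolising effectors are the largest group, and 10 of 16 rose for the line. They were the RNA-binding IFIT1 and its partner IFIT3, the RNA-activated oligoadenylate synthetases OAS1, OAS2 and OAS3, their inactive relative OASL, the helicase DDX60, RSAD2 (viperin) and its neighbour CMPK2, and the exonuclease ISG20. IFIT1 (ENSG00000185745, chr10:89392546-89406486, plus strand) was at 10.2, 0.72, 35.3 and 4.95 FPKM. Its wtBRCA1 level was 3.48 times the vector level under DMSO and 6.87 times under OTX-015, a line effect of 1.75 ± 0.36 (limma adjusted p = 0.0184). OAS2 was at 1.03, 0, 41.3 and 2.75 FPKM and OAS3 at 5.76, 0.788, 44.9 and 4.54 FPKM. DDX60 was at 11.8, 9.41, 108 and 38.1 FPKM and rose by 2.50 ± 0.38 (limma adjusted p = 0.00448). CMPK2, a mitochondrial nucleotide kinase, was at 3.56, 0.308, 40.4 and 3.80 FPKM and rose by 2.53 ± 0.43 (limma adjusted p = 0.0082). In all of these the wtBRCA1 DMSO library was highest and the vector OTX-015 library lowest.

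The other 6 effectors, IFIT2, IFIT5, EIF2AK2, ADAR, DDX60L and SLFN5, did not pass for the line. The kinase EIF2AK2 (PKR), which stops translation when it binds double-stranded RNA, was at 33.1, 28.3, 113 and 39.8 FPKM. ADAR, which edits double-stranded RNA, was at 29.5, 32.1, 70.8 and 41.8 FPKM. For both, the 3 other libraries lay close together below wtBRCA1 DMSO. IFIT2 was at 5.10, 1.13, 10.9 and 5.48 FPKM, with a line effect of 1.29 (limma adjusted p = 0.0781).

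Of the 5 GTPases MX1 and GBP3 rose. MX1, which traps viral nucleocapsids (ENSG00000157601, chr21:41420304-41459214, plus strand), was at 14.1, 5.96, 383 and 52.1 FPKM. Its wtBRCA1 level was 27.3 times the vector level under DMSO and 8.74 times under OTX-015, and it rose by 3.80 ± 0.42 (limma adjusted p = 0.000991). Its relative MX2 was at 14.9, 9.60, 22.3 and 11.1 FPKM and did not pass for the line, so in vector cells under DMSO the pair stood at like FPKM and in wtBRCA1 cells it did not. The guanylate-binding protein GBP3 was at 8.83, 4.01, 30.4 and 11.5 FPKM and GBP2 at 2.89, 1.89, 4.79 and 5.85 FPKM. GBP2 was among the few members with the highest value in wtBRCA1 cells under OTX-015.

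The ISG15 system attaches and removes a ubiquitin-like protein, and 4 of its 5 members rose for the line. ISG15 itself was at 42.7, 29.8, 208 and 83.3 FPKM, a line effect of 1.85 ± 0.32 (limma adjusted p = 0.00811). The ISG15 ligase HERC5 was at 11.6, 9.89, 34.2 and 49.3 FPKM, and its relative HERC6 was at 11.3, 5.64, 175 and 36.1 FPKM. HERC6 rose by 3.16 ± 0.39 (limma adjusted p = 0.00179). USP18, which removes ISG15 and restrains the type I receptor, was at 1.75, 1.96, 44.7 and 5.79 FPKM and rose by 2.63 ± 0.59 (limma adjusted p = 0.0251). The conjugating enzyme UBE2L6 was at 45.4, 32.3, 178 and 25.6 FPKM and did not pass. It was higher in wtBRCA1 cells under DMSO by 1.95 log2 units and lower by 0.32 units under OTX-015 (log2 difference -0.32).

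Among the ADP-ribosyltransferases and the partner DTX3L, 2 of 4 rose. PARP9 was at 5.54, 1.82, 35.5 and 6.91 FPKM and PARP12 at 3.76, 4.39, 36.1 and 16.1 FPKM, with line effects of 1.98 ± 0.39 and 2.32 ± 0.41 (limma adjusted p = 0.0153 and 0.00903). Of the 7 tripartite motif (TRIM) and nuclear body proteins 3 rose, SP100, SP110 and TRIM14. SP100 was at 19.4, 27.1, 123 and 76.2 FPKM and rose by 2.03 ± 0.35 (limma adjusted p = 0.00888). PML, the scaffold of the same nuclear bodies, was at 3.33, 7.15, 12.6 and 7.30 FPKM and did not pass. TRIM22 was at 0, 0, 10.04 and 0 FPKM, and TRIM5, a retroviral restriction factor of the same locus, was at 7.91, 6.65, 8.17 and 5.29 FPKM. TRIM5 was the member whose 4 libraries differed least in this group.

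The transcription factors and chemokines did not pass. STAT2, a subunit of the complex that binds the ISRE, was at 11.2, 26.7, 17.1 and 23.0 FPKM, and both OTX-015 libraries were above both DMSO libraries. IRF1, an activator downstream of type II interferon, was at 11.6, 12.7, 27.2 and 21.1 FPKM. The T-cell attractant CXCL10 was at 0, 0, 1.20 and 0 FPKM and CXCL11 at 0, 0, 0.239 and 0.226 FPKM. Both chemokines were thus near 0 even in the library where most members were highest.

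Of the 7 other members 5 rose. EPSTI1, an interferon-response gene of epithelial and stromal cells (ENSG00000133106, chr13:42886388-42992271, minus strand), was at 6.78, 0.365, 125 and 7.95 FPKM. The wtBRCA1 level was 18.5 times the vector level under DMSO and 21.8 times under OTX-015, and it rose by 3.37 ± 0.41 (limma adjusted p = 0.00168). IFI44 was at 31.1, 2.97, 176 and 44.5 FPKM and rose by 2.99 ± 0.36 (limma adjusted p = 0.00168). Its relative IFI44L was at 0.431, 0, 74.7 and 1.16 FPKM, and XAF1, an antagonist of the apoptosis inhibitor XIAP, was at 0.687, 0, 29.1 and 0.929 FPKM. IFI44L and XAF1 were called for the line (limma adjusted p = 0.0378 and 0.0496), but nearly all of the difference lay in the wtBRCA1 DMSO library. SAMD9L was at 0.25, 1.09, 5.94 and 1.14 FPKM and did not pass.

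The response to OTX-015 asks how BET inhibition bears on the same genes in each line. In the same fit 21 members fell, 2 rose (SLFN5 and TRIM14) and 33 did not pass, beside 2.67% and 3.66% of all genes that fell and rose. At an unadjusted p under 0.05, 34 members were lower and 2 higher, with no share of all genes counted at that cutoff. In vector cells 21 of 57 were at least 1 log2 unit lower and 3 higher, beside 12.7% and 13.0% of all genes. In wtBRCA1 cells 41 were lower and 1 higher by that size, beside 13.4% and 13.0%. The median difference was -0.61 in vector cells and -1.48 in wtBRCA1 cells, and 0.00 over all genes in both. Signs were the same in both lines for 40 members that were lower and 3 that were higher. A further 9 were higher in vector and lower in wtBRCA1 cells, and 2 went the other way. No share of all genes was counted for these signs. In 20 members the level was at least 1 log2 unit lower in both lines, beside 4.43% of all genes.

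The OTX-015 calls depend on scaling and settings. Member medians in this paragraph are over the 56 members tested, for which they were -0.68 in vector and -1.49 in wtBRCA1 cells before any rescaling. Rescaling each library to the same summed FPKM moved the median of all genes by -0.48 in vector and -0.44 in wtBRCA1 cells, and on that scale the member medians were -1.14 and -2.07, or -0.66 and -1.63 relative to all genes. ADAR, IFI6, IFI27, USP18, PARP12, SP100 and IRF1 in vector cells, and HERC5, GBP2 and STAT2 in wtBRCA1 cells, then had values below 0 in place of above, on a scale where the median of all genes was below 0 as well. Median-of-ratios scaling changed none of these signs, and quantile normalization only that of IFI27. With quantile normalization 0 of the members passed as fallen, with no share of all genes counted there, while the member medians were -0.62 and -1.55.

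**Figure D4:**
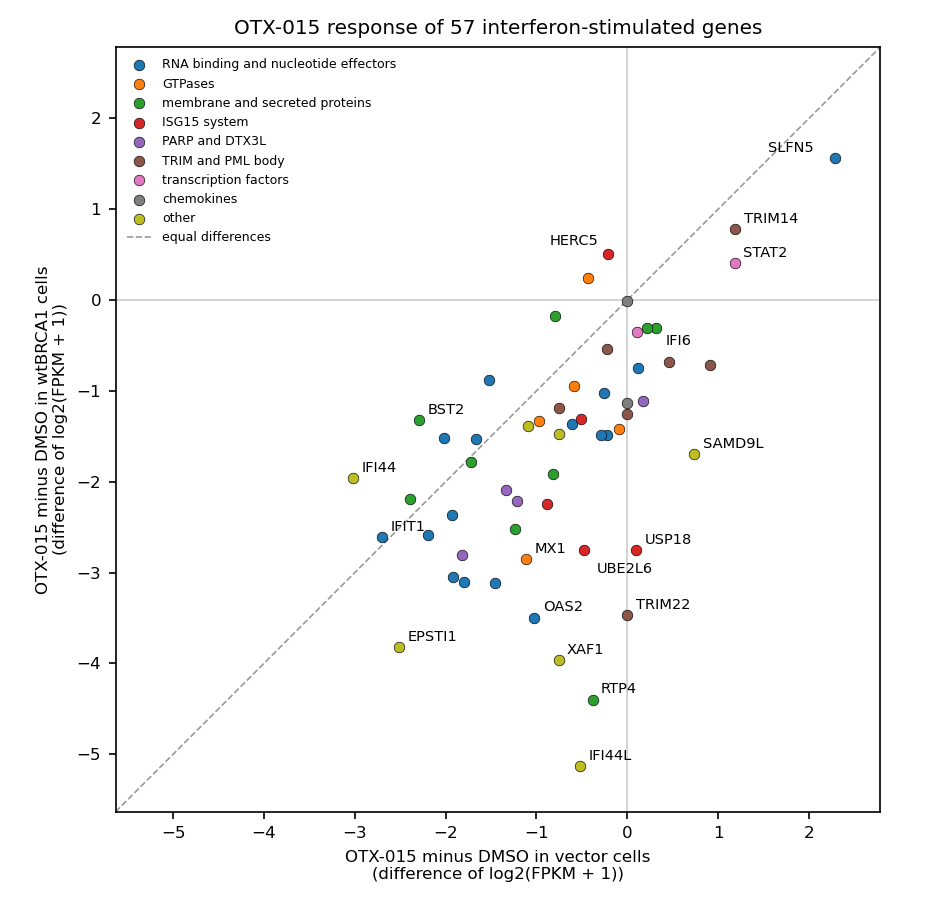
OTX-015 response of each member in wtBRCA1 cells against that in vector cells, both as differences of log2(FPKM + 1) from DMSO; each point is 1 member. The dashed line marks equal responses. Most points lie below 0 on both axes, 40 of 57 in all, and SLFN5, TRIM14 and STAT2 lie above 0 on both. STAT2 in wtBRCA1 cells turned to -0.18 after libraries were rescaled to the same sum, a scale where the median of all genes was -0.44.

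The RNA-binding and nucleotide effectors held 9 of the 21 members that fell, IFIT1, IFIT3, OAS1, OAS2, OAS3, OASL, DDX60L, RSAD2 and CMPK2. IFIT1 fell by 2.65 ± 0.36 log2 units (SE, limma adjusted p = 0.00574), and the DMSO level was 14.1 times the OTX-015 level in vector cells and 7.14 times in wtBRCA1 cells. OAS3 fell by 2.48 ± 0.41 (limma adjusted p = 0.0115) and CMPK2 fell by 2.45 ± 0.43 (limma adjusted p = 0.0151). Their levels under OTX-015 in wtBRCA1 cells, 4.54 and 3.80 FPKM, came near those of vector cells under DMSO, 5.76 and 3.56 FPKM. DDX60, ISG20, EIF2AK2 and ADAR of the same group did not pass for OTX-015, and for DDX60 the effect was -0.89 (limma adjusted p = 0.195).

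Other members with a large fall came from several groups. EPSTI1 fell by 3.17 ± 0.41 log2 units (limma adjusted p = 0.00454), the largest fall among the members, with DMSO levels 18.6 and 15.8 times the OTX-015 levels in vector and wtBRCA1 cells. IFI44 fell by 2.49 ± 0.36 (limma adjusted p = 0.00698), and IFITM2 fell by 2.29 ± 0.38 (limma adjusted p = 0.0115). BST2 fell by 1.81 ± 0.28 (limma adjusted p = 0.0093), IFITM3 fell by 1.75 ± 0.32 (limma adjusted p = 0.0178) and PLSCR1 fell by 1.37 ± 0.32 (limma adjusted p = 0.0356). IFITM1, PARP9, PARP14, DTX3L and HERC6 also fell. MX1 fell by 1.98 ± 0.42 (limma adjusted p = 0.0263), by less in vector cells (2.36-fold) than in wtBRCA1 cells (7.36-fold).

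IFI6 and IFI27, the highest members in wtBRCA1 cells, did not pass for OTX-015. IFI6 had an OTX-015 effect of 0.00 ± 0.23 (limma adjusted p = 0.999) and IFI27 of -0.04 ± 0.21 (limma adjusted p = 0.919). In vector cells the log2 differences were 0.31 and 0.22, which became -0.40 and -0.49 after that rescaling, and in wtBRCA1 cells they were -0.31 and -0.30. LGALS3BP, HERC5, GBP2, ISG15, PARP12, SP100, PML, IRF1 and STAT2 did not pass for OTX-015 either. HERC5 had differences of -0.21 in vector and 0.51 in wtBRCA1 cells and GBP2 of -0.43 and 0.24, and the wtBRCA1 values became -0.09 and -0.27 after rescaling. On the rescaled values the median of all genes was itself -0.48 in vector and -0.44 in wtBRCA1 cells.

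SLFN5 and TRIM14 rose. SLFN5, a Schlafen family protein (ENSG00000166750, chr17:35243036-35273655, plus strand), was at 0.635, 6.98, 3.45 and 12.1 FPKM. Both OTX-015 libraries were above both DMSO libraries, and the effect was 1.92 ± 0.40 log2 units (limma adjusted p = 0.0258). TRIM14, an adaptor in antiviral signalling at mitochondria (chr9:98069275-98119212, minus strand), was at 199, 455, 444 and 765 FPKM. It rose for OTX-015 by 0.99 ± 0.22 (limma adjusted p = 0.0336) and for the line by 0.95 ± 0.22 (limma adjusted p = 0.0311). It is thus the only member called higher for both, although it shares its locus with NANS, whose level, given below, is uncertain in the same way. In 16 members the line effect was called higher and the OTX-015 effect lower, with no share of all genes counted for this pair of calls. The wtBRCA1 DMSO library enters both effects, so a high value there raises the line effect and lowers the OTX-015 effect together. With a filter of 5 FPKM, with median-of-ratios scaling or without the trend, 0 of the members rose for OTX-015.

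The difference of responses, OTX-015 in wtBRCA1 cells minus OTX-015 in vector cells, cannot be tested with 1 library per group. It was at least 1 log2 unit lower in 24 members and higher in 1, IFI44, beside 14.0% and 13.2% of all genes. The median over members was -0.77, beside -0.01 over all genes. In 47 members the line difference was larger under DMSO than under OTX-015, and in 10 it was smaller, beside 50.8% of all genes in which it was larger. This is the sign of the same quantity, because the difference of responses equals the line difference under OTX-015 minus that under DMSO. The wtBRCA1 DMSO library enters the line difference under DMSO, the response in wtBRCA1 cells and this difference, so the counts are not independent of each other.

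The most negative differences were -4.62 in IFI44L, -4.02 in RTP4, -3.21 in XAF1, -2.85 in USP18, -2.48 in OAS2 and -3.47 in TRIM22. All 6 stood at 1.96 FPKM or less in both vector libraries. At the positive end IFI44 was lower by 3.01 log2 units in vector cells (difference -3.01) and by less in wtBRCA1 cells (-1.96). BST2 followed with -2.29 and -1.32, a difference of responses of 0.97. HERC5, GBP2, IFIT2 and LGALS3BP came next, at 0.72, 0.67, 0.64 and 0.62. Across the members the 2 responses had a Pearson r of 0.54 and the line differences under DMSO and OTX-015 of 0.49. These are descriptions over 57 genes of the same 4 libraries.

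The levels of 16 members were not among those chosen for full description, and they complete the list. IFIT3 was at 4.92, 0.293, 18.9 and 2.31 FPKM, OAS1 at 9.34, 2.78, 62.8 and 6.37, and OASL at 11.2, 2.01, 34.9 and 11.5. RSAD2, which makes a chain-terminating nucleotide, was at 3.30, 0.131, 25.3 and 4.09 FPKM. All 4 rose for the line and fell for OTX-015, with line effects of 1.56 in IFIT3, 1.79 in OAS1, 1.81 in OASL and 2.39 in RSAD2. ISG20 was at 2.29, 1.74, 13.9 and 6.33 FPKM and rose by 1.80 ± 0.40 for the line (limma adjusted p = 0.0247), while its OTX-015 effect of -0.64 did not pass. DDX60L was at 23.1, 6.61, 51.0 and 17.0 FPKM and fell by 1.60 ± 0.33 (limma adjusted p = 0.0253), and its line effect of 1.18 did not pass (limma adjusted p = 0.0612). IFIT5 was at 2.79, 1.48, 4.35 and 1.09 FPKM and passed for neither.

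In the other groups PLSCR1 was at 78.3, 44.0, 607 and 160.2 FPKM and IFITM1 at 4.97, 1.53, 16.4 and 2.03 FPKM. IFITM1 fell by 1.88 ± 0.44 (limma adjusted p = 0.0362). PARP14 was at 5.91, 0.958, 22.8 and 2.40 FPKM and DTX3L, the ubiquitin ligase that pairs with PARP9, at 10.2, 3.44, 33.0 and 7.0 FPKM. Both fell for OTX-015 and did not pass for the line, with PARP14 falling by 2.31 ± 0.41 (limma adjusted p = 0.0157). IFI35 was at 21.0, 9.32, 68.9 and 25.8 FPKM and SP110 at 1.58, 0.54, 9.77 and 3.73, and both rose for the line (limma adjusted p = 0.0214 and 0.0288). GBP1 was at 0.672, 0.565, 7.56 and 2.20 FPKM, SAMD9 at 2.98, 1.36, 10.03 and 2.97, and the antibody receptor TRIM21 at 1.53, 1.52, 3.24 and 0.771. These 3 passed for neither effect, although each was highest in wtBRCA1 DMSO.

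Several members share their locus in the files with other transcripts, and the sources used here do not say whether strand was used in counting. No other gene of 10 FPKM or more stood in the locus for 36 members, of which 17 rose for the line, 8 fell for OTX-015 and 1 rose. The other 21 share it, and the following partners were chosen after their values were seen. The antisense entry RP1-71H24.1 at the OAS cluster was at 9.58, 0.985, 63.7 and 5.92 FPKM, and AP001610.5, antisense to MX1, was at 8.92, 2.19, 78.7 and 19.9 FPKM. Both had the pattern of the genes they overlap. RP11-609D21.3 at XAF1 was at 14.5, 0.439, 400.5 and 7.41 FPKM, above XAF1 itself, so the XAF1 level is uncertain. NANS, on the strand opposite to TRIM14, was at 118, 156, 189 and 374 FPKM. Like TRIM14 it was higher in wtBRCA1 cells under both treatments and under OTX-015 in both lines, so the TRIM14 level is uncertain too. LIPA, at the IFIT cluster, was at 180.0, 108, 14.7 and 23.2 FPKM and ran opposite to IFIT1 between the lines.

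The pathway upstream of the members was read from 34 ligands, receptors, kinases, transcription factors and inhibitors, of which 26 were tested. Some genes of the pathway are not reported here and are left out of these numbers, so no count is given for the line. For OTX-015 1 of the 26 rose (JAK1) and 0 fell in the limma fit, beside 3.66% and 2.67% of all genes. At an unadjusted p under 0.05, 2 were higher and 2 lower, with no share of all genes counted at that cutoff. The JAK1 call was lost in all other settings but robust estimation and the highest row per symbol.

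Most ligand transcripts were near 0. IFNL1, a type III interferon that epithelial cells make, had the highest level of any ligand, at 0, 0, 6.19 and 0.433 FPKM. IFNL2 was at 0, 0, 1.58 and 0 and IFNL3 at 0, 0, 1.28 and 0 FPKM, and these are near-identical copies whose reads can be split. IFNB1, a type I interferon, was at 0, 0, 0.246 and 0 FPKM, and IFNG, IFNK and IFNW1 were at 0 in all libraries. All the type III transcripts were thus highest in the library where most members were highest, and none passed the test. Other ligands did not follow this: IFNA1 was at 0, 0.412, 0.627 and 0.876 FPKM and IFNE at 0.121, 0.244, 0.147 and 0.226 FPKM. Both were highest in an OTX-015 library and too low to be tested.

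None of the 6 receptors passed the test. IFNAR1, a chain of the type I receptor, was at 11.7, 11.6, 17.0 and 18.2 FPKM, and IFNGR1, a chain of the type II receptor, was at 15.3, 25.7, 25.9 and 24.5 FPKM. IFNLR1, a chain of the type III receptor, was at 2.32, 2.43, 0.988 and 0.137 FPKM. It was thus lower in wtBRCA1 cells under both treatments, unlike the type III ligands. JAK1 was at 21.6, 47.6, 18.0 and 56.2 FPKM and rose for OTX-015 by 1.35 ± 0.33 (limma adjusted p = 0.0408), with a higher level under OTX-015 in both lines, where most members were lower.

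The transcription factors and inhibitors described here did not pass the test for either effect. IRF9, a subunit of the complex that binds the ISRE, was at 10.4, 10.3, 93.2 and 15.2 FPKM, with a line effect of 1.79 (limma adjusted p = 0.0678), and its excess stood in 1 library as in IFI44L, XAF1 and RTP4. IRF7, an amplifier of type I interferon, was at 0.108, 0.37, 1.38 and 0 FPKM, and the inhibitor SOCS1 was at 0.244, 0, 1.20 and 0.736 FPKM.

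**Figure D5:**
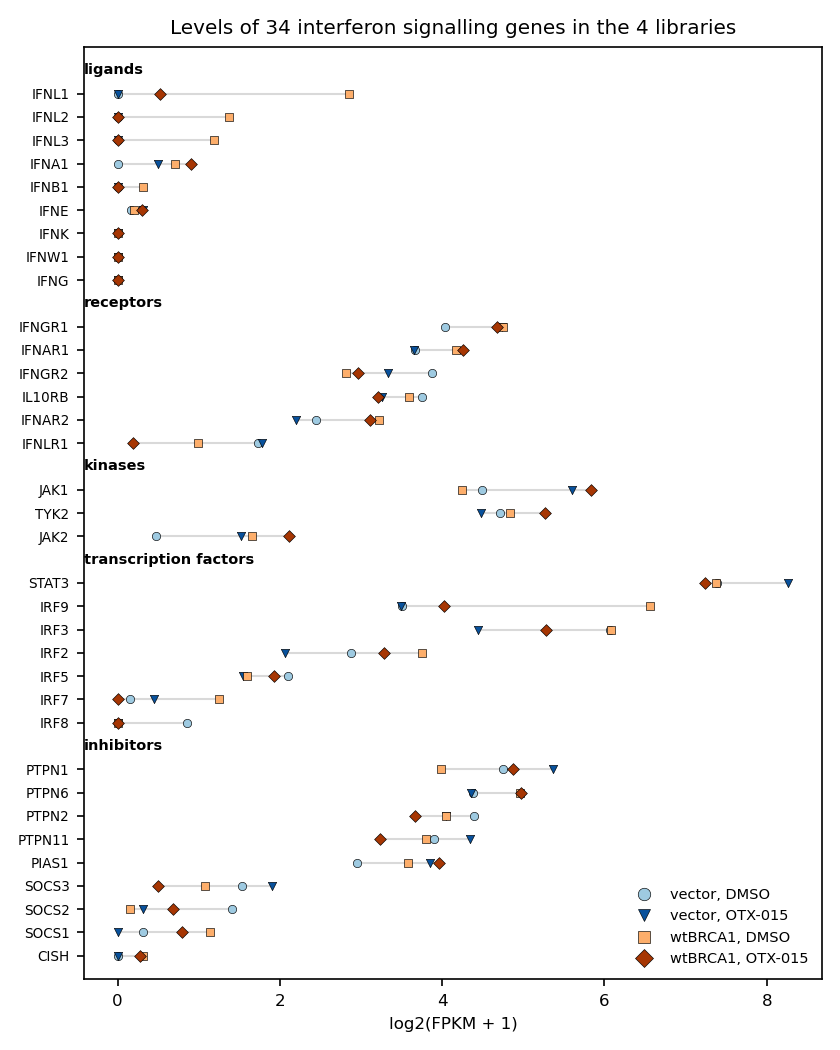
Levels of 34 interferon signalling genes in the 4 libraries as log2(FPKM + 1), with 1 row per gene grouped by role and 1 marker per library (circle, vector DMSO; triangle, vector OTX-015; square, wtBRCA1 DMSO; diamond, wtBRCA1 OTX-015). IRF9 is highest in wtBRCA1 DMSO, JAK1 is higher in both OTX-015 libraries, and most ligands are near 0, with IFNL1 at 6.19 FPKM in wtBRCA1 DMSO.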

How the data were processed

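Per the labels' protocols, poly(A) RNA went into a directional library kit. Per the submitters' processing notes, which name TopHat2, Cufflinks and hg38, the authors deposited FPKM per gene. Tool versions, annotation release, strand setting and scaling of libraries are not given in the sources used here. No counts are in the files, and low values held no common step (below 0.3 FPKM at most 4 of 588 genes shared 1 ratio at 3 decimals), so the depth and the counting error are unknown.

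Of the 60487 gene identifiers 94.2% were in GENCODE 29. After 7510 genes of short structural RNAs were dropped and rows of 68 symbols summed, 18295 genes with at least 1 FPKM in at least 1 library were analysed as log2(FPKM + 1), which understates changes of low genes. limma 3.58.1 (R 4.3.3) was fitted to all of them with terms for line and for treatment and a mean-variance trend, with Benjamini-Hochberg adjustment and a threshold of 0.05. "Rose" and "fell" refer to this fit; pairs of libraries were not tested, and a difference of at least 1 log2 unit is counted. The fit was tested on simulated data, where its share of false calls exceeded the nominal rate.

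Promoter sequences came from RefSeq (GRCh38.p14), with gene coordinates from GENCODE 29 that lay inside the files' loci for all 57 members. Values in all 4 libraries are given for members ranked among the highest and lowest for line, OTX-015 or the difference of responses, with opposite signs, with a value of 0, or with the highest level in their role group. Some genes of the signalling list are not reported here. The members and lists were chosen with earlier results of these data known. Alternatives covered the pseudocount, the filter, the scaling, rows that share a symbol, robust estimation, fits without the trend or the second factor, and each library left out. Protein identity within gene families was not analysed here. Python 3.11.15 with pandas 2.3.3, numpy 2.4.6 and matplotlib 3.10.9 was used.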

Additional observations from a re-analysis of the deposited data

Results flagged for a closer look

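In 6 genes the libraries of one line or treatment moved one way and those of the other the opposite way, with at least 1 of the movements at least 1 log2 unit in size on the log2(FPKM + 1) scale. With 1 library per group none of these differences was tested, and no share of all genes was counted for such opposite movements. USP18 was higher under OTX-015 in vector cells by 0.10 and lower in wtBRCA1 cells (-2.75), a difference of responses of -2.85. PARP12 had responses of 0.18 and -1.12 and a difference of -1.29. The vector values of USP18 and PARP12 became -0.35 and -0.38 after libraries were rescaled to the same sum, which moved the median of all genes in vector cells by -0.48, and did not change sign with median-of-ratios or quantile scaling. SAMD9L had responses of 0.74 in vector and -1.70 in wtBRCA1 cells, a difference of -2.44. UBE2L6 had line differences of 1.95 under DMSO and -0.32 under OTX-015, a difference of -2.27. Of the signalling genes, IRF7 had responses of 0.31 and -1.25 and line differences of 1.10 and -0.45, each a difference of -1.56. SOCS2, an inhibitor of cytokine receptors, had responses of -1.10 and 0.53 and line differences of -1.27 and 0.36, each a difference of 1.63. Some of these genes were near 0. SOCS2 was at 1.66, 0.245, 0.107 and 0.599 FPKM, IRF7 at 0.108, 0.37, 1.38 and 0, and SAMD9L at 0.25 in vector DMSO.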

How the results depend on the processing

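No paired analysis was possible because each group has 1 library. Shares of all genes called were counted in the main fit only. A lower count of members under another setting can therefore go with fewer calls over all genes, and this was not counted. For the line 32 members rose. The count was 17 with a pseudocount of 5, 13 with no filter, 17 with quantile normalization, 18 after rescaling to an equal sum, 4 without the trend, 2 with the other factor left out, and 0 to 0 with each library left out together with the other factor, as in all such fits here. For OTX-015 21 members fell. The count was 4 with a pseudocount of 5, 9 with an FPKM filter of 5, and 0 with no filter, with quantile normalization, without the trend, with the other factor left out and (0 to 0) with each library left out. It was 15 with median-of-ratios scaling and 24 after rescaling to an equal sum. The 2 members that rose for OTX-015 became 1 with a pseudocount of 0.1 and 0 with a pseudocount of 5, an FPKM filter of 5, no filter, median-of-ratios, quantile or equal-sum scaling, no trend, no second factor and each library left out (0 to 0).

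Of the signalling genes reported here, the 1 that rose for OTX-015 became 0 with a pseudocount of 0.1 or 5, an FPKM filter of 5, no filter, each of the 3 scalings, no trend, no second factor and each library left out (0 to 0), and 1 (IRF3) fell after rescaling to an equal sum.

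Among pairs of libraries, a pseudocount of 5 left 17 of 33 members higher in wtBRCA1 cells under OTX-015, and 7 of 21 lower under OTX-015 in vector cells. Members higher under OTX-015 in vector cells were 5 with a pseudocount of 0.1 and 1 after rescaling to an equal sum, in place of 3. Members with a higher response in wtBRCA1 cells were 4 at a pseudocount of 0.1, 0 with one of 5, 0 with quantile normalization and 2 after rescaling to an equal sum, in place of 1. Without the wtBRCA1 DMSO library and with the other factor left out, the OTX-015 effects of MX1, PLSCR1 and HERC6 were 0.35, 0.10 and 0.36 in place of negative values. That fit sets the OTX-015 libraries of both lines against vector DMSO alone, so the line difference enters the effect. Within vector cells the OTX-015 differences of these genes were -1.11, -0.82 and -0.89. Leaving out a library leaves an arm with 1 library, which is assumed to vary like the rest. Otherwise the cause was not tested. With no counts, depth sets no stated limit on genes near 0.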
